A study of Mus musculus with 12 samples.

Results

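The BCL2 family genes Bcl2, Bcl2l1, Mcl1, Bax, Bak1, Bok, Bcl2l11, Bid, Bbc3 and Pmaip1 were described in bone marrow-derived macrophages (BMDMs), which are macrophages grown in culture from the marrow of naive female FVB mice. These 10 genes were chosen by symbol from the 19549 features counted, and each had a row of its own. The cells were polarized for 4 h with IFNG, the type II interferon, at 200 units/mL, or with IL4, a type 2 cytokine, at 40 ng/mL. From each polarization, polysome-associated mRNA, meaning messages with more than 3 ribosomes taken from a 5 to 50% sucrose gradient, and total mRNA from about 10% of the cells were sequenced. The 4 groups of 3 libraries were IFNG polysome, IL4 polysome, IFNG total and IL4 total, and no group of unpolarized cells was analysed here, so every polarization difference is IFNG relative to IL4. All groups share the strain, sex and culture method, and the labels give neither the age of the mice nor the animal or culture behind each replicate. The p-values therefore cover the spread among these libraries, part or all of which may be technical.

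BCL2 family proteins decide whether the outer mitochondrial membrane stays intact. Pro-survival members such as BCL2, BCL-XL and MCL1 bind and hold back the effectors BAX and BAK, which otherwise form pores that release cytochrome c and start the caspase cascade. BH3-only proteins, among them BIM, BID, PUMA and NOXA, sense stress and free or activate the effectors, and macrophages are known to lean on the pro-survival members to live through inflammatory signalling. BOK is an effector-like member whose protein is held low by degradation at the endoplasmic reticulum.

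The sequences around annotated transcription starts are shown for the members on which the comparisons below turn. Bok was the 1 tested member called between the polarizations, from few counts, and Bax and Bbc3 were called between polysome-associated and total mRNA. Bcl2l1 is shown because it held the same motif as Bok. The letters are from RefSeq, build GRCm38.p6, read 5′ to 3′ on the gene's strand, with the matched motif in capitals. Positions count from the annotated start of the window shown. Bcl2l1 and Bbc3 had 3 start windows each, and their other windows did not hold the motif shown.
Bok, chr1:93685545-93685604, plus strand, TTCNNNNGAA from base 13 to base 22: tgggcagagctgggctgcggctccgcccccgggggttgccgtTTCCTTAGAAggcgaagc
Bcl2l1, chr2:152828460-152828519, minus strand, TTCNNNNGAA from base -4 to base 6: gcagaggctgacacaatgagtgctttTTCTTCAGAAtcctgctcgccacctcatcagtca
Bax, chr7:45467060-45467119, minus strand, p53 half-site from base -201 to base -192: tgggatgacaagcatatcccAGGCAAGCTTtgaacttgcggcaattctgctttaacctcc
Bbc3, chr7:16309426-16309485, plus strand, NF-kB site from base -137 to base -127: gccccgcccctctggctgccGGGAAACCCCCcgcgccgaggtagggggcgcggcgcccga
TTCNNNNGAA is the spacing that STAT6, the transcription factor downstream of IL4, is known to prefer. Of the 14 start windows found for 9 members, each from 250 bases before to 50 bases after a start, 2 held TTCNNNNGAA (Bok and Bcl2l1), against 6.95% of all 32851 windows. None of the 14 held the interferon-type motif GAAANNGAAA, found in 3.44% of all windows. A p53 half-site was in 1 of the 14 (Bax) and in 8.36% of all windows. An NF-kB site was in 2 of the 14 (Bbc3 and Bcl2l1) and in 8.46% of all windows. None of the 14 began with a C followed by 4 pyrimidines, against 2.51% of all. Both strands were searched except for the last motif, which was read on the gene's strand, and a match is a description of the letters, not a binding site.

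The 12 libraries held 2563955 to 22014162 counts, with 2563955 to 8789480 in the polysome libraries. Levels are CPM, the edgeR measure of counts relative to the TMM-scaled library size, on which 3 counts stand for 0.184 to 1.13 CPM, and they are not compared between genes because no transcript lengths were used. The mitochondrial leucyl-tRNA synthetase feature Lars2 took 1.78 to 29.3% of counts in IFNG polysome and 5.15 to 18.1% in IL4 polysome libraries, against 0.341 to 2.00% in total libraries. All 7 macrophage markers had counts in every group, summing to 7531 to 23910 CPM per library. Dendritic cell markers summed to 17.3 to 44.4 CPM in IFNG polysome and 0.681 to 2.13 CPM in IL4 polysome libraries, and to 8.43 to 26.9 CPM in IFNG total and 0.552 to 1.60 CPM in IL4 total libraries, with Flt3 at 0 in all. Neutrophil markers summed to 10.6 to 33.6 CPM in IFNG total and 1.33 to 4.97 CPM in IL4 total libraries, and on polysomes to 4.20 to 8.13 CPM with IFNG and 1.499 to 11.3 CPM with IL4. Marker sums of T and NK, erythroid and mast cells stayed at or under 1.38 CPM, those of B cells at or under 6.34 CPM and those of stromal cells at or under 42.0 CPM. The dendritic cell sums in both fractions and the neutrophil sums in total mRNA did not overlap between polarizations, while the neutrophil sums on polysomes and the B cell and stromal sums did. In total mRNA the dendritic cell sums came mainly from Xcr1 (9.42 CPM with IFNG, 0.182 with IL4) and Clec9a (6.95 and 0 CPM). Zbtb46 (0.400 and 0.623 CPM) and Cd209a (0 and 9 counts) went the other way. The neutrophil sums came mainly from S100a8 (9.12 and 2.59 CPM) and S100a9 (6.10 and 0.0211 CPM), and Retnlg (0 and 12 counts) went the other way. These sums thus describe a few genes, not amounts of a cell type. The part of other cell types in the members' differences was not tested.

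IFNG-polarized and IL4-polarized macrophages were set against each other first, in total mRNA and on polysomes. Bok, the effector-like member, had 4 counts in IFNG total libraries and 122 in IL4 total libraries, and these IL4 counts alone let it through the filter on low counts, so its call there is given as a description. The pro-survival genes Bcl2l1 and Mcl1, the effector Bak1 and the BH3-only genes Bcl2l11 and Bid had higher means with IFNG than with IL4 in both fractions, but none of them passed the test in either. The Bax means in total mRNA were nearly equal, with a wide interval.

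Bcl2l1 encodes BCL-XL, a pro-survival protein of the outer mitochondrial membrane, and lies on the minus strand at chr2:152758732-152833803. On polysomes its level was 312.6, 475.3 and 492.0 CPM in IFNG libraries, against 228.3, 216.7 and 217.9 CPM in IL4 libraries. Its total mRNA level was 555.7, 637.5 and 299.8 CPM with IFNG, against 347.1, 203.6 and 176.6 CPM with IL4. Every IFNG polysome library thus stood above every IL4 polysome library, whereas in total mRNA IFNG replicate 3 lay below IL4 replicate 1. The log2 fold change was 0.95 ± 0.42 (SE) on polysomes (edgeR adjusted p = 0.141) and 1.04 ± 0.42 in total mRNA (edgeR adjusted p = 0.128), so neither passed the threshold of 0.05 after adjustment over all 10421 features tested. The 95% interval in total mRNA ran from 0.17 to 1.90.

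Mcl1, on chr3:95656944-95663179, encodes a short-lived pro-survival protein that must be resynthesised continually. Its polysome level was 225.5, 192.3 and 241.2 CPM with IFNG, against 174.9, 82.2 and 79.0 CPM with IL4. In total mRNA it had 101, 170.5 and 241.4 CPM with IFNG and 87.0, 100.2 and 102.0 CPM with IL4. The polysome groups did not overlap, with IL4 replicate 1 the nearest to the IFNG libraries, and the total mRNA groups overlapped. The polysome log2 fold change was 0.97 ± 0.42 (edgeR adjusted p = 0.140), and without IL4 polysome replicate 1 it passed the test (edgeR adjusted p = 0.0449).

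Bcl2, the founding pro-survival member on chr1:106538176-106714290, had 43.1, 18.3 and 12.6 CPM in IFNG polysome libraries and 33.1, 12.04 and 5.67 CPM in IL4 polysome libraries. In total mRNA the values were 11.3, 14.5 and 17.4 CPM with IFNG and 12.3, 10.5 and 11.0 CPM with IL4. Replicate 1 was the highest polysome library in both polarizations, and the groups overlapped in both fractions. The differences, 0.52 (edgeR adjusted p = 0.588) on polysomes and 0.35 (edgeR adjusted p = 0.825) in total mRNA on the log2 scale, did not pass the test.

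Bax and Bak1 encode the pore-forming effectors. Bax, on chr7:45461695-45466903, had 1036, 798.9 and 540.1 CPM in IFNG total libraries and 939.8, 827.1 and 615.7 CPM in IL4 total libraries. Its log2 difference in total mRNA was -0.00 with a 95% interval of -1.02 to 1.01, a range that still holds sizeable differences either way. On polysomes Bax had 162.8, 48.6 and 32.1 CPM with IFNG and 132.3, 151.9 and 137.3 CPM with IL4. IFNG replicate 1 stood above and IFNG replicates 2 and 3 far below all IL4 polysome libraries. The polysome log2 fold change was -0.78 ± 0.49 (edgeR adjusted p = 0.328), and without IFNG polysome replicate 1 Bax passed the test as lower with IFNG (edgeR adjusted p = 0.00882).

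Bak1, on chr17:27019812-27028627, had 89.9, 107.6 and 156.2 CPM in IFNG polysome and 49.0, 55.9 and 78.3 CPM in IL4 polysome libraries. Total mRNA values were 209.6, 178.5 and 141.0 CPM with IFNG and 125.5, 67.5 and 126.3 CPM with IL4. The groups did not overlap in either fraction, with IFNG the higher in both. The log2 fold changes of 0.95 ± 0.41 on polysomes (edgeR adjusted p = 0.129) and 0.73 ± 0.40 in total mRNA (edgeR adjusted p = 0.320) did not pass the test.

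Bok, on chr1:93685575-93695770, was a rare message throughout. It had 3, 1 and 0 counts in IFNG total libraries (0.190, 0.116 and 0 CPM), against 27, 70 and 25 counts in IL4 total libraries (1.96, 4.29 and 1.58 CPM). The groups did not overlap, and IL4 replicate 2 was the highest. Bok passed the filter on low counts only through the IL4 total libraries, so it was tested because it was high in that group. The log2 fold change was -4.44 ± 1.08 (edgeR adjusted p = 0.00847), which for this reason supports nothing by itself. With no filter on low counts it was -4.46 (edgeR adjusted p = 0.00486), but this rests on the same counts and adds no support. Summed over the group, 4 counts with IFNG against 122 with IL4 gave a ratio of 0.0419 per scaled library, with a 95% counting interval of 0.0112 to 0.110 that covers counting error only. Without IL4 total replicate 2 the call was lost (edgeR adjusted p = 0.0625), without IFNG total replicate 1 the log2 fold change was -5.39, and with libraries thinned to the smallest total it was -6.24. Fewer cells expressing Bok and less Bok mRNA per cell cannot be told apart in these bulk libraries, as for every other difference described here. On polysomes Bok had 2, 0 and 0 counts with IFNG and no count with IL4, at or under the floor of 3 counts per group, so no fold is given there.

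**Figure D1:**
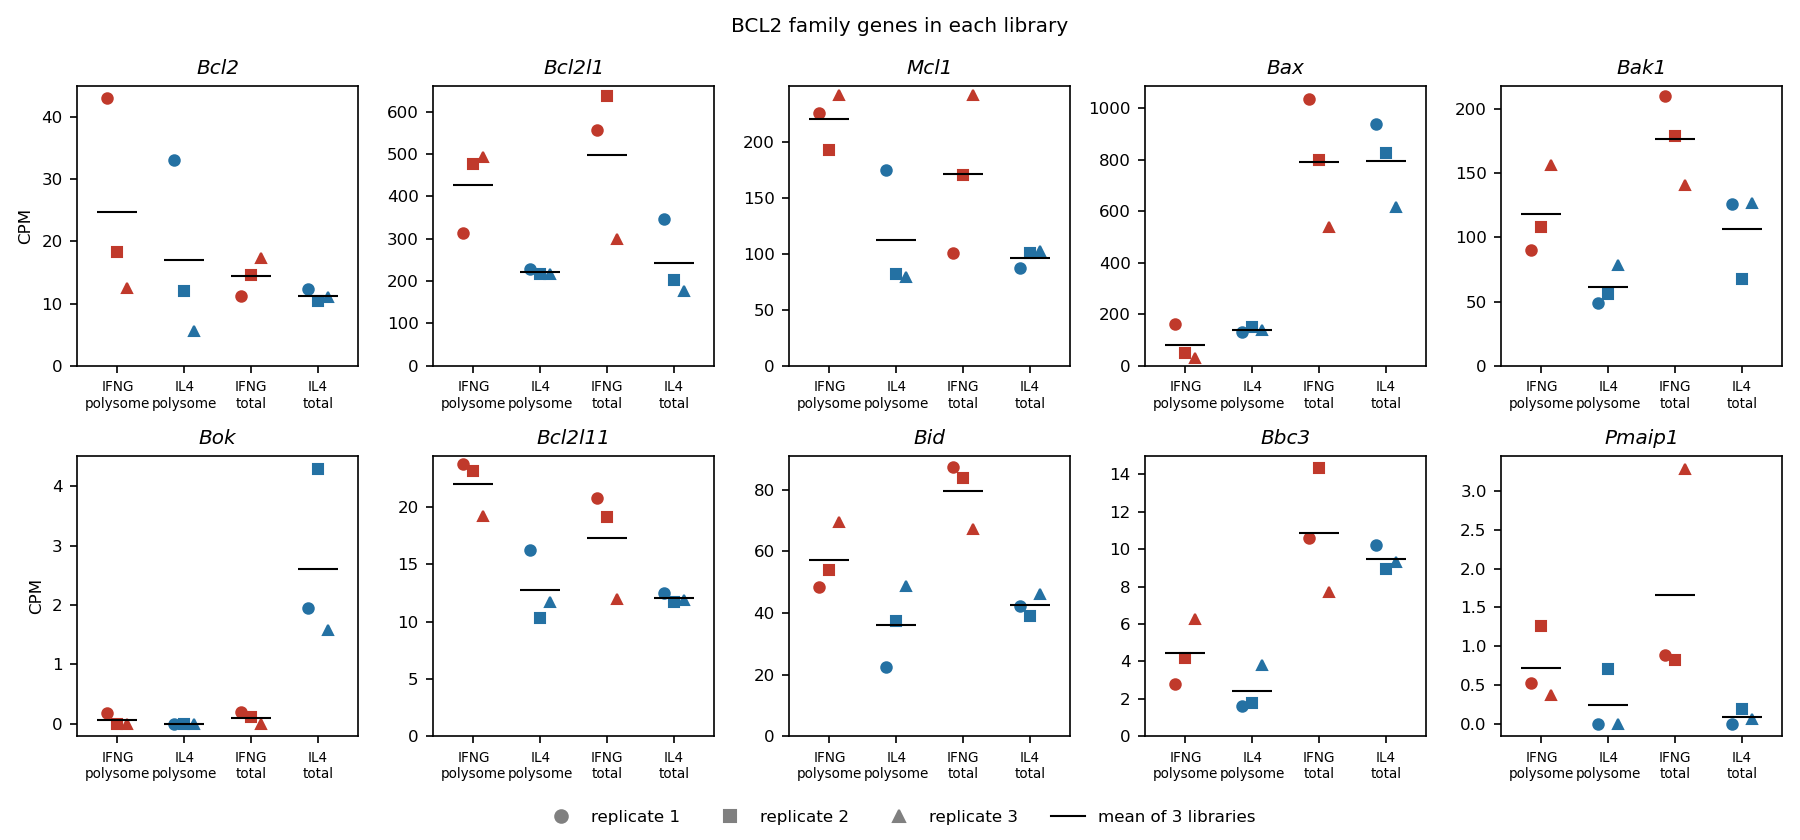
Level of each of the 10 genes in CPM (vertical axes, each panel with its own scale) in the 4 groups of 3 libraries; points are libraries and horizontal lines the group means. Bax points of both polysome groups sit at 32.1 to 162.8 CPM, under all total mRNA points at 540.1 to 1036 CPM, and Bok counts come almost wholly from IL4 total mRNA.

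The BH3-only genes were moderately or weakly expressed. Bcl2l11, which encodes BIM and lies on chr2:128126038-128162547, had 23.7, 23.1 and 19.2 CPM in IFNG polysome libraries, against 16.2, 10.3 and 11.7 CPM in IL4 polysome libraries. Total mRNA values were 20.8, 19.1 and 11.9 CPM with IFNG and 12.5, 11.7 and 11.9 CPM with IL4. The polysome groups did not overlap and the total mRNA groups did. Neither difference passed the test (0.78 ± 0.41 on polysomes, edgeR adjusted p = 0.235, and 0.52 ± 0.40 in total mRNA, edgeR adjusted p = 0.546).

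Bid, on chr6:120893119-120917062, encodes the protein that caspase-8 cleaves to link death receptors to mitochondria. It had 87.5, 83.9 and 67.3 CPM in IFNG total libraries, against 42.3, 39.1 and 46.2 CPM in IL4 total libraries. On polysomes it had 48.4, 54.0 and 69.4 CPM with IFNG and 22.3, 37.5 and 48.8 CPM with IL4. All IFNG total libraries were above all IL4 total libraries, while on polysomes the top IL4 library passed the lowest IFNG library. The log2 fold change in total mRNA was 0.90 ± 0.38 (edgeR adjusted p = 0.156, with an unadjusted p of 0.0276 in the model over all features), and on polysomes it was 0.67 ± 0.39 (edgeR adjusted p = 0.285).

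Bbc3 encodes PUMA, a BH3-only protein known as a p53 target, and lies on chr7:16308398-16318334. It averaged 4.43 ± 1.74 CPM in IFNG polysome and 2.40 ± 1.20 CPM in IL4 polysome libraries, and 10.9 ± 3.32 CPM in IFNG total and 9.49 ± 0.658 CPM in IL4 total libraries (SD, n = 3 each). The polarizations overlapped in both fractions, with log2 fold changes of 0.89 (edgeR adjusted p = 0.337) on polysomes and 0.19 (edgeR adjusted p = 0.909) in total mRNA.

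Pmaip1, which encodes NOXA, the BH3-only partner of MCL1, was too rare to pass the filter and is the 1 member without a test. It had 14, 7 and 38 counts in IFNG total libraries, against 0, 3 and 1 counts in IL4 total libraries. On polysomes it had 6, 6 and 1 counts with IFNG and 0, 2 and 0 with IL4. The total mRNA groups did not overlap and the polysome groups did. The summed ratio in total mRNA was 18.8 (95% counting interval 6.98 to 71.4), from 59 counts with IFNG and 4 with IL4. On polysomes it was 4.43 (1.00 to 40.4), from 13 counts with IFNG and 2 with IL4. Both intervals cover counting error only, not the spread among libraries. With no filter on low counts, which raised the features tested to 13590, the total mRNA log2 fold change of Pmaip1 was 4.09 ± 1.27 (edgeR adjusted p = 0.0161). In that setting the polysome difference of 1.91 ± 1.51 did not pass the test (edgeR adjusted p = 0.517).

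Of the 9 members tested, 0 were called higher and 1 lower (Bok, tested only because of its IL4 total counts) with IFNG in total mRNA, where 7.08% of all features tested were called higher and 3.93% lower. The groups did not overlap for 2 members with IFNG the higher (Bak1 and Bid) and for 1 with IFNG the lower (Bok), beside 13.4% and 12.3% of all features. On polysomes 0 members were called higher and 0 lower by edgeR, DESeq2 or limma-voom, beside 7.54% and 6.58% of all features by edgeR, and 3 of the 9 had an unadjusted edgeR p under 0.05 (Bcl2l1, Mcl1 and Bak1), beside 2808 of all 10421 features, a share close to that of the members. There the groups did not overlap for 4 members with IFNG the higher (Bcl2l1, Mcl1, Bak1 and Bcl2l11) and for 0 with IFNG the lower, beside 15.2% and 16.0% of all features. The members' median log2 fold change was 0.89 on polysomes and 0.52 in total mRNA, or 0.84 and 0.63 without Bok, and that of all features was -0.06 and 0.04. Without Bok, 7 of 8 members were above 0 in each fraction. In all features 4934 of 10421 were above 0 on polysomes and 5391 of 10421 in total mRNA.

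**Figure D2:**
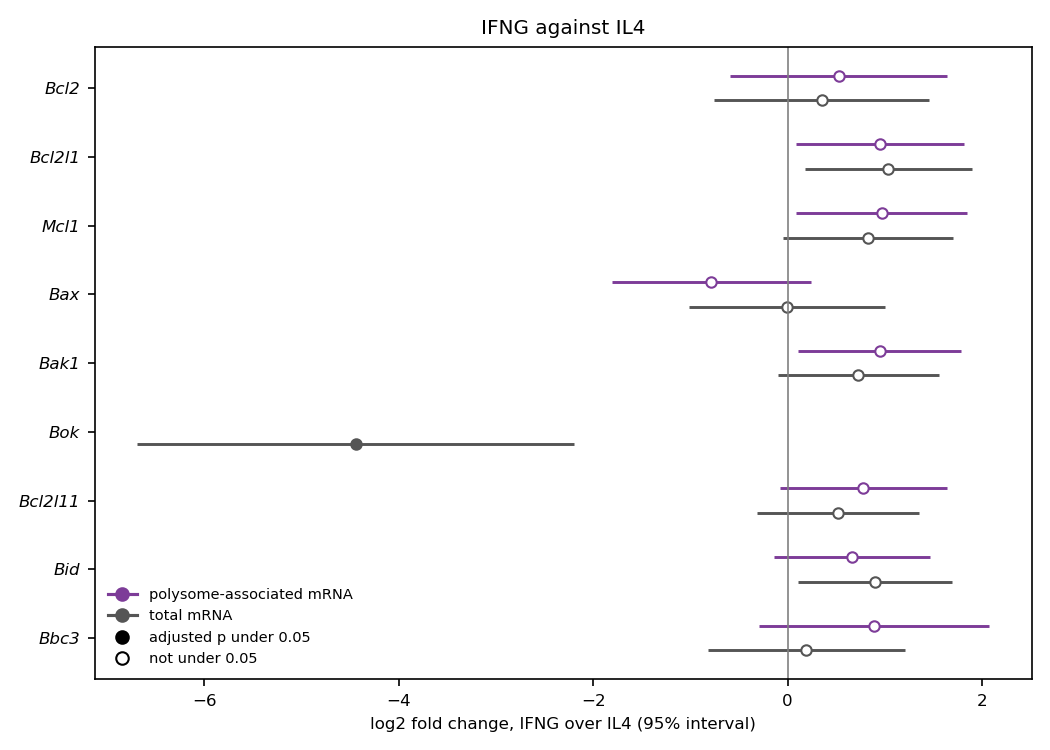
Log2 fold change of IFNG over IL4 (horizontal axis) for each tested member, in polysome-associated and total mRNA, with 95% intervals; filled points passed the edgeR test. Bok in total mRNA, at -4.44, is the filled point, and most other points lie to the right of 0 with intervals that reach or come near it; Bok on polysomes and Pmaip1 are not drawn.

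Polysome-associated mRNA was then set against total mRNA within each polarization, which asks how far a message was found with more than 3 ribosomes relative to its share of the total. Bax was far lower on polysomes than in total mRNA in both polarizations. Bbc3 was lower on polysomes and passed the test with IL4 but not with IFNG, and Bok was lower with IL4. Bcl2l1, Mcl1, Bcl2, Bak1, Bcl2l11 and Bid did not pass the test in either polarization. Because libraries are scaled, these ratios are relative to the typical message of each fraction and are not absolute shares on ribosomes.

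For Bax the ratio of polysome to total CPM was 0.157, 0.0608 and 0.0595 with IFNG and 0.141, 0.184 and 0.223 with IL4 in replicates 1, 2 and 3. All 6 ratios were far below 1, and IFNG replicate 1 lay among the IL4 values. The polysome mean was 81.2 ± 71.2 CPM and the total mean 792 ± 248 CPM with IFNG (SD, n = 3 each). With IL4 the polysome mean was 141 ± 10.2 CPM and the total mean 794 ± 165 CPM. Bax fell by 3.28 ± 0.53 on the log2 scale with IFNG (edgeR adjusted p = 0.000367) and by 2.50 ± 0.52 with IL4 (edgeR adjusted p = 0.00251). Both calls held under every alternative setting run, and without IFNG polysome replicate 1 the IFNG log2 fold change was -4.29. The difference between polarizations, -0.78 with a 95% interval of -2.21 to 0.66, did not pass the test (edgeR adjusted p = 1).

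For Bbc3 the polysome to total ratio was 0.266, 0.294 and 0.817 with IFNG and 0.160, 0.198 and 0.407 with IL4. The levels behind the IL4 ratios were 1.64, 1.77 and 3.78 CPM on polysomes, from 12, 5 and 10 counts, and 10.2, 8.95 and 9.30 CPM in total mRNA. Polysome and total groups did not overlap in either polarization, although IFNG replicate 3 was close to 1. With IL4 the log2 fold change was -2.03 ± 0.55 (edgeR adjusted p = 0.0107), and without IL4 polysome replicate 1 it missed the threshold (edgeR adjusted p = 0.0519). With IFNG it was -1.33 ± 0.52 (edgeR adjusted p = 0.0611), and it passed with the replicate number as a block (edgeR adjusted p = 0.0484) but not with a block for each cell preparation, the source that both fractions share (edgeR adjusted p = 0.0739). The difference between polarizations was 0.70, with a 95% interval of -0.85 to 2.25, and did not pass the test.

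Bok had no count in the IL4 polysome libraries and 122 in IL4 total mRNA. With the polysome group set at the floor of 3 counts it would be 11.3-fold lower there, which is not a minimum. The 95% counting interval of the ratio, which covers counting error only, ran from 0 to 0.110. The edgeR adjusted p was 0.00666, but the IL4 total libraries of this comparison are those that let Bok through the filter. With no filter on low counts the edgeR adjusted p was 0.00207, again from the same counts, so it adds no support. With IFNG it had 2 counts on polysomes and 4 in total mRNA, a ratio of 0.955 whose counting interval of 0.0864 to 6.67 holds values on both sides of 1. Pmaip1, untested, had 13 counts on polysomes and 59 in total mRNA with IFNG, a ratio of 0.421 (95% counting interval 0.212 to 0.776, counting error only). The libraries went both ways, with ratios of 0.595, 1.55 and 0.113 in replicates 1, 2 and 3. With no filter on low counts the Pmaip1 log2 fold change there was -1.19 ± 1.14 and did not pass the test (edgeR adjusted p = 0.518).

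The pro-survival genes varied widely from replicate to replicate in this ratio. The polysome to total ratio of Mcl1 was 2.23, 1.13 and 0.999 with IFNG and 2.01, 0.820 and 0.775 with IL4. That of Bcl2 was 3.82, 1.26 and 0.724 with IFNG and 2.69, 1.15 and 0.516 with IL4. In both genes replicate 1 had the highest ratio in both polarizations. The ratio of Bcl2l1 was 0.563, 0.746 and 1.64 with IFNG and 0.658, 1.06 and 1.23 with IL4, with replicate 1 the lowest. The log2 fold changes of polysome over total mRNA were 0.36 with IFNG and 0.22 with IL4 for Mcl1, 0.79 and 0.62 for Bcl2, and -0.22 and -0.13 for Bcl2l1, none of which passed the test. Replicate 1 of each polarization was also the polysome library with the lowest Lars2 share, 1.78% with IFNG and 5.15% with IL4, and the part of this in the ratios was not tested.

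Bak1 had ratios of 0.429, 0.603 and 1.11 with IFNG and 0.391, 0.829 and 0.620 with IL4, and Bid had 0.553, 0.644 and 1.03 with IFNG and 0.528, 0.960 and 1.06 with IL4. In these genes too replicate 1 was the lowest of each polarization. Bcl2l11 had 1.14, 1.21 and 1.61 with IFNG and 1.30, 0.877 and 0.986 with IL4. The log2 fold changes of Bak1 were -0.58 with IFNG (edgeR adjusted p = 0.293) and -0.80 with IL4 (edgeR adjusted p = 0.133), and those of Bid and Bcl2l11 were between -0.48 and 0.35.

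**Figure D3:**
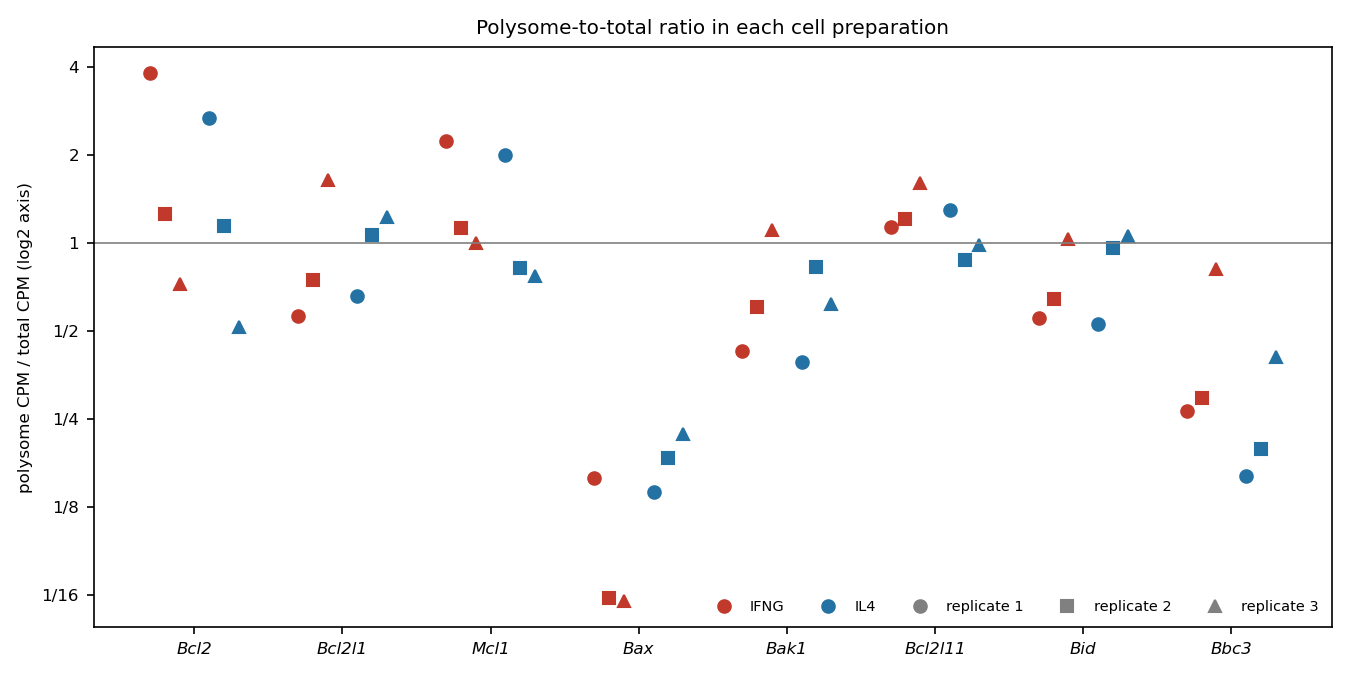
Ratio of polysome to total CPM (log axis) for 8 members in replicates 1, 2 and 3 of each polarization, with 1 marked by a line and marker shape giving the replicate. Bax ratios lie at 0.0595 to 0.223, partly beside the Bbc3 ratios with IL4 at 0.160 to 0.407, and the replicate 1 markers lie at the top for Bcl2 and Mcl1 and at the bottom for Bcl2l1, Bak1, Bid and Bbc3; Bok and Pmaip1 are not drawn.

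Of the 9 members tested, 0 were called higher and 1 lower (Bax) on polysomes with IFNG, beside 8.93% of all features called higher and 17.0% lower. With IL4, 0 were called higher and 3 lower (Bax, Bok and Bbc3), beside 13.2% and 15.9%, or 2 lower of 8 leaving out Bok, which was tested only because of its IL4 total counts. The polysome groups lay wholly below the total mRNA groups for 2 members with IFNG (Bax and Bbc3) and 3 with IL4 (Bax, Bok and Bbc3), beside 18.8% and 25.7% of all features. The members' median log2 fold change was -0.22 with IFNG and -0.24 with IL4, beside 0.00 and 0.06 for all features. No member differed between polarizations in its polysome association by edgeR, and of all features 0% were called higher and 0% lower. There, 176 of 10421 features had an unadjusted p under 0.05, DESeq2 called 1 feature and limma-voom 0.

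**Figure D4:**
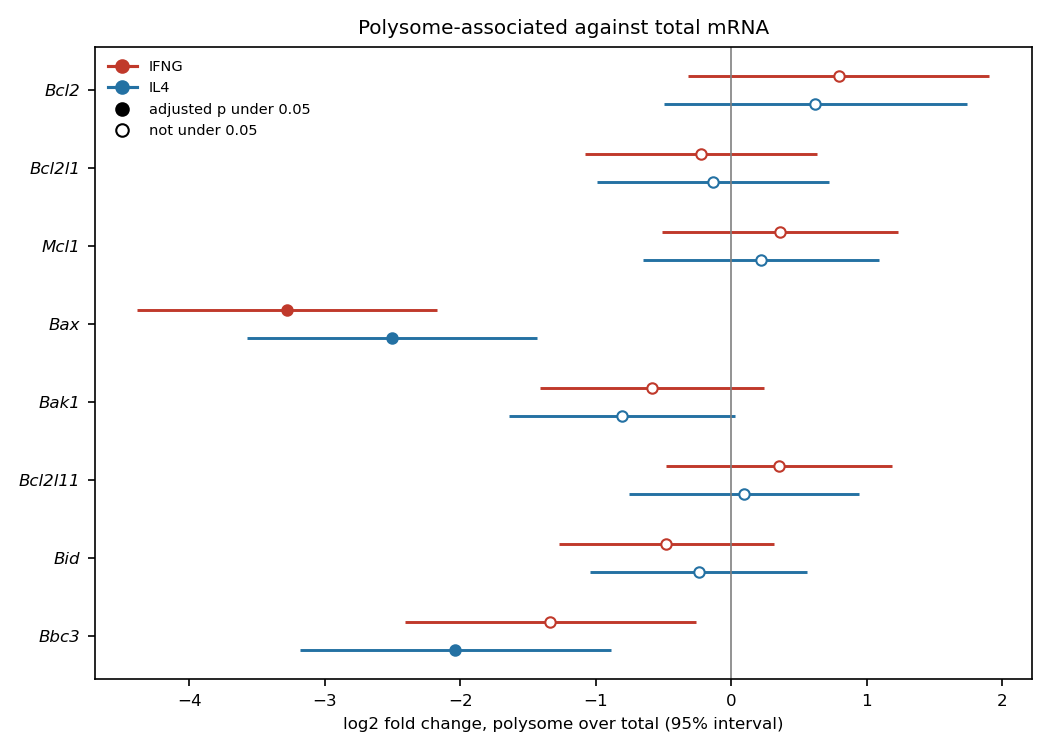
Log2 fold change of polysome-associated over total mRNA (horizontal axis) within IFNG and within IL4 for 8 tested members, with 95% intervals; filled points passed the edgeR test. Bax at -3.28 and -2.50 and Bbc3 with IL4 at -2.03 are filled, and the other intervals reach 0 except that of Bbc3 with IFNG; Bok and Pmaip1, which rest on few counts, are not drawn.

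Genes that act beside the 10 members were counted in lists grouped by role, again as IFNG against IL4. Most listed genes did not pass the test. Of those that did, 3 of 10 in total mRNA and 5 of 13 on polysomes were death receptor genes. The death receptor list held 13 of the genes tested, beside 10, 19, 11 and 8 in the other lists. Of all features, 7.08% were called higher and 3.93% lower in total mRNA, and 7.54% and 6.58% on polysomes. The other BCL2 family list had 10 of 15 genes tested, of which 1 was called higher and 0 lower in each fraction. That gene was Bnip3, a mitochondrial BH3-like protein best known in mitophagy, with 54.6 ± 21.8 CPM in IFNG polysome and 14.0 ± 7.68 CPM in IL4 polysome libraries (log2 fold change 1.98, edgeR adjusted p = 0.0219). In total mRNA Bnip3 had 64.5 ± 39.6 CPM with IFNG and 10.7 ± 5.69 CPM with IL4 (2.58, edgeR adjusted p = 0.00315, and 1.96 without IFNG total replicate 3). Its polysome call was lost without IL4 polysome replicate 1 (edgeR adjusted p = 0.0973), without IFNG polysome replicate 2 (edgeR adjusted p = 0.0716) and with no scaling factors (edgeR adjusted p = 0.0757). On polysomes against total mRNA this list had 0 called higher and 6 lower with IFNG (Bcl2a1a, Bcl2a1b, Bcl2a1d, Bcl2l12, Bik and the joined feature of Bad and Gpr137), and 0 higher and 2 lower with IL4 (Bik and the feature of Bad). Of all features, 8.93% were called higher and 17.0% lower there with IFNG, and 13.2% and 15.9% with IL4. Bcl2a1a, Bcl2a1b and Bcl2a1d are near-identical copies whose counts the authors' counting could split, so each is uncertain.

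The list of the apoptosome, caspases and their inhibitors, with 19 of 19 genes tested, had 1 called higher (Birc3) and 2 lower (Birc5 and Casp6) in each fraction. Birc5, which encodes survivin, a protein known mainly for its work in cell division, averaged 7.87 ± 4.77 CPM in IFNG polysome and 65.6 ± 31.6 CPM in IL4 polysome libraries. In total mRNA it averaged 22.4 ± 11.9 CPM with IFNG and 171 ± 56.7 CPM with IL4. It fell by 3.03 on the log2 scale on polysomes (edgeR adjusted p = 0.000646) and by 2.92 in total mRNA (edgeR adjusted p = 0.00066), and the polysome value was -3.63 without IFNG polysome replicate 1. The executioner caspase gene Casp6 fell by 2.78 on polysomes (edgeR adjusted p = 0.00107) and by 2.40 in total mRNA (edgeR adjusted p = 0.00236). In total mRNA it had 4.42 ± 3.07 CPM with IFNG and 23.3 ± 5.72 CPM with IL4, and its log2 fold change was -3.16 without IFNG total replicate 3. Birc3, the cIAP2 ubiquitin ligase, rose with IFNG by 2.56 on polysomes (edgeR adjusted p = 0.0009) and by 1.87 in total mRNA (edgeR adjusted p = 0.00731, but 0.0539 without IL4 total replicate 1 and 0.0846 with no scaling factors). The genes for APAF1, caspase-9, caspase-3 and XIAP were among the 16 that did not pass the test.

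The death receptor list had 13 of 14 genes tested, with 4 called higher and 1 lower on polysomes and 3 higher and 0 lower in total mRNA. Tnfsf10, which encodes the ligand TRAIL, averaged 51.3 ± 23.1 CPM in IFNG polysome and 0.723 ± 0.392 CPM in IL4 polysome libraries. In total mRNA it averaged 33.5 ± 12.1 CPM with IFNG and 0.296 ± 0.252 CPM with IL4. Its log2 fold change was 6.15 on polysomes (edgeR adjusted p = 1.42e-06) and 6.74 in total mRNA (edgeR adjusted p = 1.68e-07), and the total mRNA value was 7.56 without IL4 total replicate 3. Cflar, which encodes the caspase-8 inhibitor c-FLIP, averaged 227 ± 78.0 CPM in IFNG polysome and 36.5 ± 26.2 CPM in IL4 polysome libraries (2.62, edgeR adjusted p = 0.00077, and 3.37 without IL4 polysome replicate 1). Mlkl, the pore-former of necroptosis, rose by 2.26 on polysomes (edgeR adjusted p = 0.00368) and by 2.23 in total mRNA (edgeR adjusted p = 0.0026, but 0.0551 with no scaling factors). The genes called higher with IFNG thus held a death ligand and an inhibitor of death receptor signalling. The receptor gene Fas was called on polysomes, with 5.77 ± 1.51 CPM with IFNG and 1.08 ± 0.696 CPM with IL4 (2.41, edgeR adjusted p = 0.0397). That call of Fas was lost in 8 of the alternatives run, among them the loss of any polysome library but IFNG replicate 3 (edgeR adjusted p = 0.0601 to 0.117). Fadd, the adaptor, was the gene called lower there (-1.68, edgeR adjusted p = 0.0108, but 0.133 without IL4 polysome replicate 3 and 0.0559 without IFNG polysome replicate 3), and it was named after its values were seen.

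Of the list of genes around BH3-only transcription, 11 of 12 were tested, and 3 were called higher and 0 lower on polysomes and 2 higher and 0 lower in total mRNA. Mdm2, the ubiquitin ligase that holds p53 down, averaged 75.6 ± 33.6 CPM in IFNG polysome and 19.2 ± 8.25 CPM in IL4 polysome libraries (1.97, edgeR adjusted p = 0.013, but 0.0559 without IL4 polysome replicate 3 and 0.0859 with no scaling factors). In total mRNA its log2 fold change was 1.57 (edgeR adjusted p = 0.0482), a call lost in 10 of the alternatives run, among them the loss of any total library but IFNG replicate 2 or IL4 replicate 3 (edgeR adjusted p = 0.0584 to 0.241), and the value was 2.22 without IL4 total replicate 3. Chac1, a glutathione-degrading enzyme and ATF4 target that is not itself a regulator of these genes, rose by 1.86 on polysomes (edgeR adjusted p = 0.0346) and by 2.37 in total mRNA (edgeR adjusted p = 0.00398). Its polysome call was lost in 7 of the alternatives run, among them the loss of replicate 2 or 3 of either polysome group (edgeR adjusted p = 0.0634 to 0.149). Atf4, the stress-response transcription factor, had 82.5 ± 18.7 CPM in IFNG polysome and 17.2 ± 5.35 CPM in IL4 polysome libraries (2.26, edgeR adjusted p = 0.000875). In total mRNA Atf4 had 257 ± 72.8 CPM with IFNG and 157 ± 42.3 CPM with IL4, a difference that did not pass the test (0.71, edgeR adjusted p = 0.342), and no interaction was called. Trp53, the gene of p53, had log2 differences of -0.77 on polysomes and 0.06 in total mRNA that did not pass the test.

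Of 8 genes listed for MCL1 protein turnover, 8 were tested and 1 was called higher and 0 lower in each fraction. This was Pim1, a survival kinase known to phosphorylate BAD, with 54.8 ± 31.8 CPM in IFNG polysome and 9.92 ± 3.23 CPM in IL4 polysome libraries (2.47, edgeR adjusted p = 0.00395). In total mRNA Pim1 had 28.7 ± 14.2 CPM with IFNG and 4.60 ± 2.04 CPM with IL4 (2.64, edgeR adjusted p = 0.00205). On polysomes against total mRNA this list had 2 called higher and 1 lower in each polarization. Of all features, 8.93% were called higher and 17.0% lower there with IFNG, and 13.2% and 15.9% with IL4. The higher ones were the ubiquitin ligase gene Huwe1 and the deubiquitinase gene Usp9x, whose products act on MCL1. Neither passed the test between polarizations, and neither was named by the rule for the lists. The lower one with IFNG was the joined feature of Cdc20 and Elovl1 (-1.45, edgeR adjusted p = 0.0206). The median log2 fold changes of IFNG over IL4 on polysomes and in total mRNA were 0.56 and 0.72 for the other BCL2 family genes, 0.11 and 0.31 for the apoptosome list, 0.57 and 0.76 for death receptor genes, -0.21 and 0.35 for the BH3-only list and 0.23 and 0.02 for MCL1 turnover.

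**Figure D5:**
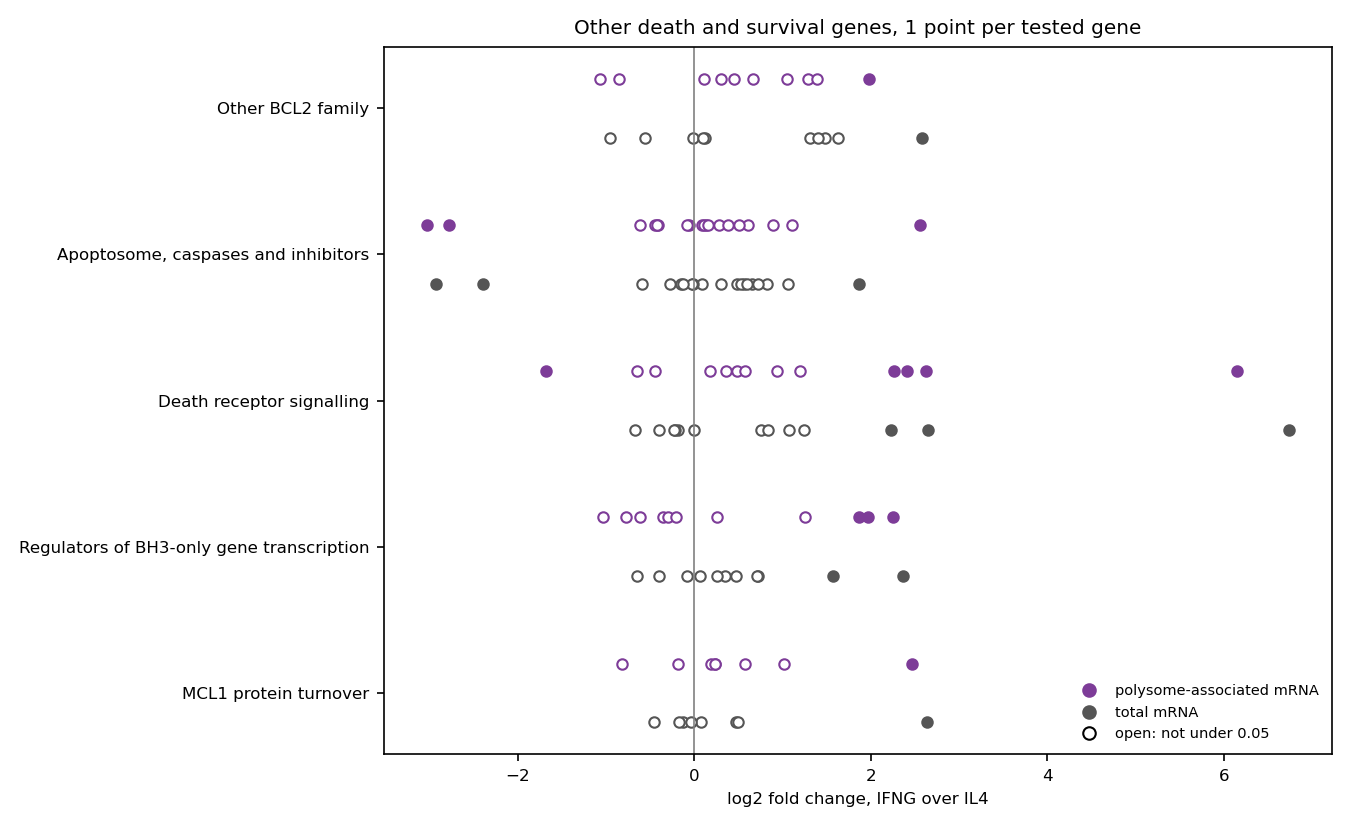
Log2 fold change of IFNG over IL4 (horizontal axis) for every tested gene of the 5 lists, on polysomes and in total mRNA; each point is a gene, filled where it passed the edgeR test. The filled points farthest right are Tnfsf10 at 6.15 and 6.74, and the filled point farthest left is Birc5 on polysomes at -3.03.

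The features whose levels over the 12 libraries were most like that of Bok, by Pearson correlation of log2 CPM among those averaging at least 10 CPM, were Dnase1l1 (r = 0.864), the joined feature of Mapk8ip3 and Nme3 (0.862), Sirpa (0.853), the joined feature of Arhgap9 and Gli1 (0.849) and Cebpa (0.847). These values describe libraries that share polarization, fraction and depth. None of the 5 was called between polarizations in total mRNA, with edgeR adjusted p-values of 0.0758 to 0.338.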

How the data were processed

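Per the labels' protocols, libraries were made with the SmartSeq2 method, and both fractions of a replicate came from 1 cell population. The deposited counts are whole-number read counts per gene symbol, without normalization, per the file headers. Per the file headers, the deposited tables also give TMM-scaled log2 values, filled for 11006 of 19549 features (9 of the 10 members, all but Bok); it was not used in tests. HISAT2, HISAT, limma and mm10 are named per the submitters' processing notes. What counted the reads, with which strand setting and annotation, is not given in the sources used here, so reads of overlapping or antisense genes cannot be told apart, and 830 features join several symbols.

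Here the counts were filtered with edgeR's filterByExpr (10421 features left, 9 of the 10 members), scaled with TMM and fitted in 1 quasi-likelihood model of the 4 groups with no covariates and robust dispersion (R 4.3.3, edgeR 4.0.16). P-values of the 5 comparisons were adjusted by Benjamini-Hochberg over all features, with a threshold of 0.05. Errors of log2 fold changes are SE, intervals are 95%, and levels are mean ± SD of 3 libraries. The total mRNA comparison was also run on simulated counts, with changes placed only in features averaging at least 10 CPM. That run does not cover changes in features as rare as Bok, the comparisons that involve polysomes or the interaction. Alternatives were DESeq2 1.42.0, limma-voom 3.58.1, other scalings and filters, thinning, a replicate block and leaving out libraries.

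The members and lists were chosen with earlier results of these data known. All members were named. In each list up to 4 called genes were named by log2 fold change in total mRNA, and for called members the 5 most correlated features. Deviations from group means over features were correlated between libraries of the same replicate number. Between polarizations these were 0.395, 0.185 and 0.663 in total mRNA and 0.223, 0.111 and 0.282 on polysomes. Between fractions, where the pairing comes from the protocol, they were 0.221, 0.352 and -0.0236 with IFNG and 0.0176, 0.286 and 0.0768 with IL4. Libraries of different numbers were not correlated for comparison, so these values cannot decide whether the numbers pair the samples between polarizations. Sequences and positions are from RefSeq GRCm38.p6, and 14 start windows matched 9 members. Pmaip1 was not in that table.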

Additional observations from a re-analysis of the deposited data

How the results depend on the processing

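A total of 24 alternatives were run, 2 of them chosen after seeing the data: leaving out both replicate 1 polysome libraries, and a block for each cell preparation. Of 1432 values for 62 gene results, 1366 kept their direction and side of the threshold. Many of these left out a library outside the groups compared, where the fold change could hardly move. Bbc3 in total mRNA, for example, was 0.1925 in the main fit and 0.1925 without IFNG polysome replicate 1. The count is therefore no measure of how firm the results are. Members called in total mRNA numbered 2 with no filter on low counts (Bok and Pmaip1) and 0 with a filter at 10 CPM, which removes Bok, against 1. On polysomes they numbered 2 without both replicate 1 libraries (Bax, edgeR adjusted p = 0.0155, and Mcl1, 0.0466), against 0. Polysome-associated against total mRNA with IFNG gave 2 (Bax and Bbc3) with Lars2 left out, DESeq2, limma-voom and the replicate block, against 1, and with IL4 gave 1 with the 10 CPM filter, against 3. Leaving out 1 library each gave 0 to 1 in total mRNA, 0 to 1 on polysomes, 1 to 2 with IFNG, 2 to 3 with IL4 and 0 for the interaction. The replicate block moved no other call of a member. Differences that did not pass the test turned sign in a few settings, and the cause was not tested. In log2 units, no scaling factors gave -0.16 for Bbc3 in total mRNA and 0.076 and 0.013 for Bcl2l1 on polysomes against total mRNA with IFNG and IL4. With Lars2 left out of library sizes, Bax in total mRNA was 0.00094 and Bcl2l11 on polysomes against total mRNA with IL4 was -0.10. Without both replicate 1 polysome libraries, the IL4 values against total mRNA were -0.45 for Bcl2, -0.37 for Mcl1 and -0.24 for Bcl2l11. Over the settings that leave out 1 library, IFNG against IL4 in total mRNA spanned -0.30 to 0.16 for Bax, -0.11 to 0.35 for Bbc3 and -0.012 to 1.86 for Fas, and on polysomes -0.16 to 1.49 for Bcl2. Polysomes against total mRNA spanned -0.42 to 0.080 for Bcl2l1 with IFNG. With IL4 it spanned -0.34 to 0.94 for Bcl2, -0.32 to 0.22 for Bcl2l1, -0.26 to 0.40 for Mcl1, -0.13 to 0.23 for Bcl2l11 and -0.59 to 0.021 for Bid.

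With no scaling factors the median of all features moved by -0.34 in total mRNA and by 0.31 on polysomes against total mRNA with IFNG. Features called higher with IFNG then numbered 477 in total mRNA, against 738, and 514 on polysomes, against 786. Those called lower on polysomes than in total mRNA numbered 775 with IFNG, against 1769, and 1007 with IL4, against 1662. With only the groups compared in the fit, 467 were called higher on polysomes than in total mRNA with IFNG, against 931. Interaction calls were 1 higher and 4 lower with no filter and 1 lower by DESeq2. Leaving out 1 library brought the lowest counts to 239 lower in total mRNA (against 410, without IFNG total replicate 2) and 342 lower on polysomes (against 686, without IL4 polysome replicate 3). On polysomes against total mRNA they were 305 higher (against 931) and 936 lower (against 1769) with IFNG, both without IFNG total replicate 1, and 529 higher (against 1375) and 1049 lower (against 1662) with IL4, both without IL4 total replicate 2. Depth limits the members most for Bok and Pmaip1, which rest on single-digit counts in most libraries.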

Other observations

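Genes downstream of the BCL2 family at the mitochondrion were also set side by side in polysome-associated and total mRNA, and those named in these 2 paragraphs were chosen after their values were seen. Of the 19 apoptosome, caspase and inhibitor genes, 2 were called higher and 7 lower on polysomes with IFNG, and 4 higher and 6 lower with IL4. Of all features, 8.93% were called higher and 17.0% lower with IFNG, and 13.2% higher and 15.9% lower with IL4, so the lists' counts in these paragraphs are partly near the background. Apaf1, the scaffold of the apoptosome, was higher on polysomes by 1.69 ± 0.41 (SE, log2) with IFNG (edgeR adjusted p = 0.00542) and by 1.69 ± 0.41 with IL4 (edgeR adjusted p = 0.00589). Birc6, a very large ubiquitin ligase that inhibits caspases, was higher by 1.98 with IFNG and 2.21 with IL4 (edgeR adjusted p = 0.0036 and 0.00242). Vdac1, a channel of the outer mitochondrial membrane, fell by 1.53 with IFNG (edgeR adjusted p = 0.00886) and by 2.04 with IL4 (edgeR adjusted p = 0.00207). The cytochrome c gene Cycs fell by 1.76 with IFNG (edgeR adjusted p = 0.0104) and was not called with IL4.

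Of the 13 death receptor genes tested, 0 were called higher and 3 lower on polysomes with IFNG, and 0 higher and 4 lower with IL4. Tradd, Traf2 and Ripk3, which encode adaptors and a kinase of the receptor complexes, were among the lower ones in both polarizations. Of the 11 genes tested around BH3-only transcription, 1 was called higher and 3 lower with IFNG and 1 higher and 2 lower with IL4, among them Atf4, lower on polysomes by a log2 fold change of -1.64 with IFNG and -3.19 with IL4 (edgeR adjusted p = 0.00682 and 9.69e-05). No difference between polarizations in these ratios passed the interaction test. The authors' deposited log2 column leaves out Bok and keeps Pmaip1, whereas the filter used here kept Bok and left out Pmaip1, so which of the 2 rare members enters a comparison differs between these tables.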
